A study of Homo sapiens with 10 samples.

Results

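The genes described here carry cholesterol within the cell and out of it, or answer to the liver X receptors (LXRs). There were 10 of them, chosen by name: NPC1, NPC2, STARD4, SOAT1, ABCA1, ABCG1, NR1H2, NR1H3, MYLIP and LPCAT3. All 10 were found once in each of the 2 tables, among 35606 genes per table, and all 10 passed the filter on a mean of 1 CPM (read counts scaled to library size) in both. The values were RNA-seq of QGP-1, a long-established cell line from a human neuroendocrine tumor of the pancreas, in 10 samples that formed 5 groups of 2.

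In the knockdown table, cells carried a CRISPR interference vector, in which a Cas9 without nuclease activity is joined to the KRAB repressor and guided to a gene's start. The control guide was sgNC and the other guide was sgPIKFYVE-1, aimed at PIKFYVE, the lipid kinase that makes the phosphoinositide PI(3,5)P2 on endosomes and lysosomes. Both groups came from cells infected with the vector and selected with puromycin, and the knockdown rested on a single guide. In the drug table, cells labelled wild type, with no guide named, received DMSO, 1 µM apilimod (an inhibitor of the PIKfyve kinase) or 100 nM Torin-1 (an inhibitor of the kinase mTOR). Both drugs were given for 24 h by the sample labels, while figure legends of the study give a shorter exposure, and no time is given for DMSO. Nothing in the labels says whether the samples of a group came from separate cultures, so p-values measure the spread between these samples, which may be technical.

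Cholesterol that enters the cell in lipoproteins is freed from its esters in the lysosome, passed by the soluble protein NPC2 to the membrane protein NPC1, and exported to other membranes. Sterol transfer proteins such as STARD4 move it on, SOAT1 esterifies any excess for storage in lipid droplets, and the transporters ABCA1 and ABCG1 pass it out to lipoproteins. Oxysterols, made as cholesterol rises, activate the LXRs NR1H3 (LXR-alpha) and NR1H2 (LXR-beta), which pair with RXR and raise ABCA1, ABCG1, MYLIP and LPCAT3, whereas low sterol in the endoplasmic reticulum activates SREBP-2, which raises genes of cholesterol synthesis and uptake.

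The labelled cell type was checked first. Of 9 neuroendocrine markers, 8 were at 1 CPM or more in every sample, and NEUROD1 was under 1 CPM in all. Their summed level was 7543 and 7854 CPM with sgNC, 6496 and 6750 CPM with sgPIKFYVE-1, 7591 and 7600 CPM under DMSO, 6588 and 6794 CPM under apilimod and 9492 and 9737 CPM under Torin-1. It thus moved with the groups, and its part in the results was not tested. The summed level of 7 markers of blood, stromal, endothelial and liver cells was 9.66 to 14.8 CPM in the knockdown table and 3.72 to 6.65 CPM in the drug table. COL3A1 was at 0 in all 10 samples, but another collagen gene, COL1A1, was above 1 CPM in each. COL1A1 had 9.46 and 9.60 CPM with sgNC and 7.23 and 5.61 CPM with sgPIKFYVE-1. Its log2 fold change was -0.51 (adjusted p = 0.0297 from limma). In the drug table it had 1.27 to 3.17 CPM. PIKFYVE itself had 101 and 97.5 CPM with sgNC and 10.9 and 12.5 CPM with sgPIKFYVE-1. In the bulk samples fewer cells with a transcript and less of it per cell cannot be told apart.

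With sgPIKFYVE-1, the 2 lysosomal export genes, the transfer protein STARD4, the storage enzyme SOAT1 and the acyltransferase LPCAT3 were higher than with sgNC, and the efflux transporter ABCA1 was lower. That is 5 of 10 genes higher and 1 lower at an adjusted p under 0.05 from limma with Benjamini-Hochberg adjustment over 13591 genes, where 42.5% of all genes tested were called, 21.6% higher and 20.9% lower. Over all genes this was 2935 higher and 2837 lower as deposited, and 2480 and 3209 after rescaling to equal sums. The median log2 fold change of the 10 was 0.22, against -0.0042 over all genes tested. The groups did not overlap in 8 of the 10, against 70.6% of all genes.

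Under apilimod, STARD4, NPC2, NPC1 and LPCAT3 were higher than under DMSO, and both efflux transporters were lower. That is 4 of 10 higher and 2 lower among 13520 genes, of which 8.54% were called, 5.75% higher and 2.79% lower. The directions among all genes depended on the scaling, with 778 higher and 377 lower genes as deposited and 658 and 536 after quantile normalization, but the 6 calls of the 10 genes were made in both. The median of the 10 was 0.12, against -0.01 over all genes. The groups did not overlap in 9 of the 10, against 50.7% of all genes.

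Under Torin-1, STARD4 and LPCAT3 were lower than under DMSO and ABCA1 was higher, with the other 7 genes short of the threshold. That is 2 of 10 lower and 1 higher, where 38.5% of all genes were called, 21.8% lower and 16.6% higher, so the shares were near the background. The groups did not overlap in 6 of the 10, against 69.3% of all genes. Both drugs were compared with the same DMSO samples, so their values share that error. A direct test of apilimod against Torin-1 leaves the DMSO samples out of the contrast and is given below for single genes. In it 5 of the 10 were higher under apilimod and 2 lower, where 46.7% of all genes were called, 26.2% higher and 20.5% lower. The balance over all genes turned with the scaling, from 3547 higher and 2765 lower as deposited to 3009 and 3232 after quantile normalization and 2962 and 3401 after rescaling to equal sums.

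**Figure D1:**
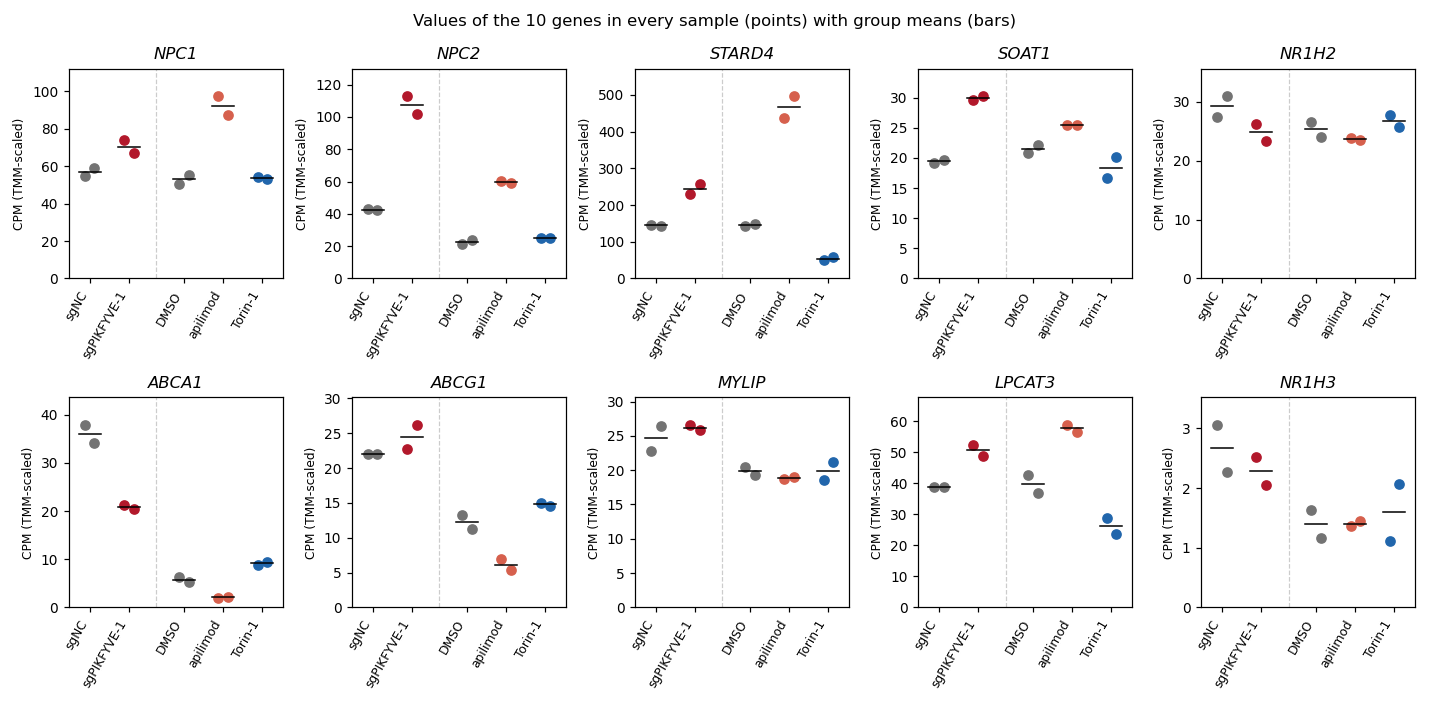
CPM of each of the 10 genes (vertical axes, each from 0) in the 5 groups, with a point for each sample and a bar for the mean of 2, and a dashed line between the separately normalized tables. STARD4 reached 438 and 497 CPM under apilimod and 51.1 and 57.2 CPM under Torin-1, and ABCA1 had 34.1 and 37.9 CPM with sgNC but 5.31 and 6.25 CPM under DMSO.

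NPC1 (ENSG00000141458.13 in the tables, chromosome 18 from 23506184 to 23586898 on the minus strand of GRCh38 in GENCODE release 29) encodes the lysosomal membrane protein that exports cholesterol. It had 54.9 and 59.1 CPM with sgNC and 74.1 and 67.0 CPM with sgPIKFYVE-1, so the groups did not overlap. The log2 fold change, here and throughout on log2(CPM + 1), was 0.30 (SE, standard error, 0.078 and adjusted p = 0.00387 from limma with Benjamini-Hochberg adjustment). Without the first sgPIKFYVE-1 sample it was 0.23 and did not pass (adjusted p = 0.0525 from limma), and without a variance trend it did not pass either (adjusted p = 0.0738). NPC1 had 50.6 and 55.5 CPM under DMSO, 97.6 and 87.3 CPM under apilimod and 54.1 and 53.0 CPM under Torin-1. Apilimod samples stood apart from both other groups, while the Torin-1 samples lay within the range of DMSO. The change under apilimod was 0.79 (SE 0.081, limma adjusted p = 1.52e-05), and that under Torin-1 was 0.01 with a 95% interval from -0.16 to 0.19. In the direct test apilimod exceeded Torin-1 by 0.77 (adjusted p = 3.36e-06 from limma).

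NPC2 (ENSG00000119655.10, chromosome 14 from 74476192 to 74494177, minus strand) encodes the soluble lysosomal protein that hands cholesterol to NPC1. It had 42.8 and 42.3 CPM with sgNC and 113 and 102 CPM with sgPIKFYVE-1, a ratio of means of 2.52. The log2 fold change was 1.31 (SE 0.075, limma adjusted p = 5.22e-11), which ranked 88 from the highest of 13591 genes. In the drug table NPC2 had 21.5 and 23.6 CPM under DMSO and 60.1 and 59.3 CPM under apilimod, a ratio of 2.65. That change was 1.37 (SE 0.094, limma adjusted p = 2.28e-07) and ranked 72 of 13520. Under Torin-1 it had 25.2 and 25.1 CPM, just above both DMSO samples, with a change of 0.15 that did not pass (95% interval from -0.05 to 0.36, adjusted p = 0.216 from limma). Apilimod exceeded Torin-1 by 1.21 (adjusted p = 1.83e-07 from limma). NPC2 was thus called higher in both comparisons against PIKfyve and not against mTOR.

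STARD4 (ENSG00000164211.13, chromosome 5 from 111496033 to 111512590, minus strand) encodes a soluble sterol carrier that moves cholesterol between membranes and is a known SREBP-2 target. With sgNC it had 146 and 143 CPM and with sgPIKFYVE-1 229 and 256 CPM, a log2 fold change of 0.74 (SE 0.057, limma adjusted p = 4.45e-09). Under DMSO it had 143 and 147 CPM, under apilimod 438 and 497 CPM and under Torin-1 51.1 and 57.2 CPM. The 3 drug groups did not overlap. The change was 1.68 under apilimod (SE 0.071, limma adjusted p = 7.92e-10), ranked 46 from the highest, and -1.41 under Torin-1 (SE 0.071, limma adjusted p = 4.73e-09), ranked 38 from the lowest. Between the drugs the ratio of means was 8.64 and the direct difference 3.09 (adjusted p = 2.75e-13 from limma).

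SOAT1 (ENSG00000057252.13, chromosome 1 from 179293714 to 179358680, plus strand) encodes the enzyme of the endoplasmic reticulum that esterifies cholesterol. It had 19.2 and 19.7 CPM with sgNC and 29.6 and 30.3 CPM with sgPIKFYVE-1, a change of 0.60 (SE 0.109, limma adjusted p = 2.11e-04). In the drug table it had 20.9 and 22.1 CPM under DMSO, 25.4 and 25.4 CPM under apilimod and 16.7 and 20.1 CPM under Torin-1. The apilimod samples were above and the Torin-1 samples below both DMSO samples, but neither change passed, at 0.23 (95% interval from -0.02 to 0.48, adjusted p = 0.278 from limma) and -0.22 (95% interval from -0.47 to 0.03, adjusted p = 0.161). The direct difference between the drugs was 0.45 (adjusted p = 0.00613 from limma), and without the first Torin-1 sample it was 0.32 and did not pass (adjusted p = 0.0654). Whether SOAT1 changed more in the knockdown than under apilimod was not tested, since the tables were normalized apart.

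ABCA1 (ENSG00000165029.16, chromosome 9 from 104781002 to 104928237, minus strand) encodes the transporter that loads cholesterol and phospholipid onto lipid-poor apolipoprotein A-I. It had 37.9 and 34.1 CPM with sgNC and 21.3 and 20.4 CPM with sgPIKFYVE-1, which left 57.9% of the sgNC mean. The change was -0.76 (SE 0.106, limma adjusted p = 1.06e-05). In the drug table its level was low throughout, with 6.25 and 5.31 CPM under DMSO, 2.04 and 2.12 CPM under apilimod and 8.76 and 9.49 CPM under Torin-1. The 3 groups did not overlap, with apilimod lowest and Torin-1 highest. The apilimod mean was 36.0% of the DMSO mean, a change of -1.14 (SE 0.182, limma adjusted p = 9.80e-04) that ranked 17 from the lowest of 13520 genes. The Torin-1 change was 0.58 (SE 0.182, limma adjusted p = 0.0219). Its call was lost without the second DMSO sample (0.48, adjusted p = 0.149), without the first Torin-1 sample (0.63, adjusted p = 0.0590), without the second (0.53, adjusted p = 0.108) and without the filter on low values (adjusted p = 0.0757). The direct difference, apilimod minus Torin-1, was -1.72 (adjusted p = 3.96e-06 from limma).

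ABCG1 (ENSG00000160179.18, chromosome 21 from 42199689 to 42297244, plus strand) encodes a transporter that passes cholesterol on to mature high-density lipoprotein. It had 22.0 CPM in both sgNC samples and 22.7 and 26.2 CPM with sgPIKFYVE-1, a change of 0.14 that did not pass (95% interval from -0.10 to 0.38, adjusted p = 0.346 from limma). Under DMSO it had 13.3 and 11.3 CPM, under apilimod 6.89 and 5.32 CPM and under Torin-1 15.0 and 14.6 CPM. The apilimod samples lay below both other groups, with a mean of 49.7% of DMSO and a change of -0.91 (SE 0.157, limma adjusted p = 0.00177). The Torin-1 change was 0.25 (95% interval from -0.08 to 0.59, adjusted p = 0.224 from limma), and the direct difference was -1.16 (adjusted p = 3.80e-05 from limma). ABCG1 ranked 33 from the lowest under apilimod.

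The control levels of ABCA1 differed between the tables by more than the replicates within either. Its sgNC values of 34.1 and 37.9 CPM stood beside DMSO values of 5.31 and 6.25 CPM. NPC2, at 42.3 and 42.8 CPM with sgNC and 21.5 and 23.6 CPM under DMSO, also lay apart, as did ABCG1, at 22.0 CPM in both sgNC samples and 11.3 and 13.3 CPM under DMSO. In all, 7 of the 10 genes did not overlap between the controls, with NR1H3, MYLIP and NR1H2 higher and SOAT1 lower with sgNC, whereas NPC1, STARD4 and LPCAT3 overlapped. The share of all genes that lay apart between the controls was not computed, so this count cannot be read as particular to the 10. The sgNC cells carried the vector, the labels name none for the DMSO cells, and the tables were normalized apart, so these contrasts were not tested.

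The receptors showed no change that passed the test. NR1H2 (ENSG00000131408.14, chromosome 19 from 50329653 to 50382982, plus strand) had 27.5 and 31.0 CPM with sgNC and 26.3 and 23.4 CPM with sgPIKFYVE-1, a change of -0.23 (95% interval from -0.46 to 0.0036, adjusted p = 0.107 from limma). In the drug table NR1H2 had 26.5 and 24.1 CPM under DMSO, 23.9 and 23.5 CPM under apilimod and 27.8 and 25.8 CPM under Torin-1. The changes were -0.09 (95% interval from -0.31 to 0.14) under apilimod and 0.08 (from -0.14 to 0.30) under Torin-1. NR1H3 (ENSG00000025434.19, chromosome 11 from 47248300 to 47269032, plus strand) was the lowest of the 10 in each sample. It had 3.06 and 2.27 CPM with sgNC, 2.52 and 2.05 CPM with sgPIKFYVE-1, 1.63 and 1.16 CPM under DMSO, 1.36 and 1.44 CPM under apilimod and 1.12 and 2.07 CPM under Torin-1. All of its groups overlapped with their control. Its intervals were wide, from -0.71 to 0.40 in the knockdown, -0.58 to 0.59 under apilimod and -0.49 to 0.68 under Torin-1, so a change of moderate size was not detectable at this depth.

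MYLIP (ENSG00000007944.15, chromosome 6 from 16129125 to 16148248, plus strand), also called IDOL, encodes a ubiquitin ligase that sends lipoprotein receptors to degradation. It had 22.8 and 26.5 CPM with sgNC and 26.6 and 25.8 CPM with sgPIKFYVE-1. It had 20.5 and 19.3 CPM under DMSO, 18.7 and 19.0 CPM under apilimod and 18.6 and 21.2 CPM under Torin-1. No change passed, with values of 0.09 (95% interval from -0.14 to 0.32), -0.07 (from -0.32 to 0.18) and -0.0030 (from -0.25 to 0.25) in that order. MYLIP was thus called in none of these comparisons, unlike ABCA1 and LPCAT3, and the difference between genes was not tested.

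LPCAT3 (ENSG00000111684.11, chromosome 12 from 6976186 to 7018510, minus strand) encodes the acyltransferase that puts polyunsaturated chains into membrane phospholipids. It had 38.8 CPM in both sgNC samples and 52.5 and 49.0 CPM with sgPIKFYVE-1, a change of 0.38 (SE 0.085, limma adjusted p = 0.00131). Under DMSO it had 42.8 and 36.9 CPM, under apilimod 58.9 and 56.7 CPM and under Torin-1 28.9 and 23.6 CPM. The 3 drug groups did not overlap. Its apilimod change of 0.53 (SE 0.108, limma adjusted p = 0.00608) was lost without the second DMSO sample (0.42, adjusted p = 0.0912), without the first apilimod sample (0.50, adjusted p = 0.0546), without the filter (adjusted p = 0.0790) and without a variance trend (adjusted p = 0.0991). The Torin-1 change was -0.59 (SE 0.108, limma adjusted p = 7.39e-04), and the direct difference was 1.12 (adjusted p = 1.61e-06 from limma). LPCAT3 thus lay on the opposite side from ABCA1, a gene of the same receptors, in each of the 3 comparisons with a control.

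**Figure D2:**
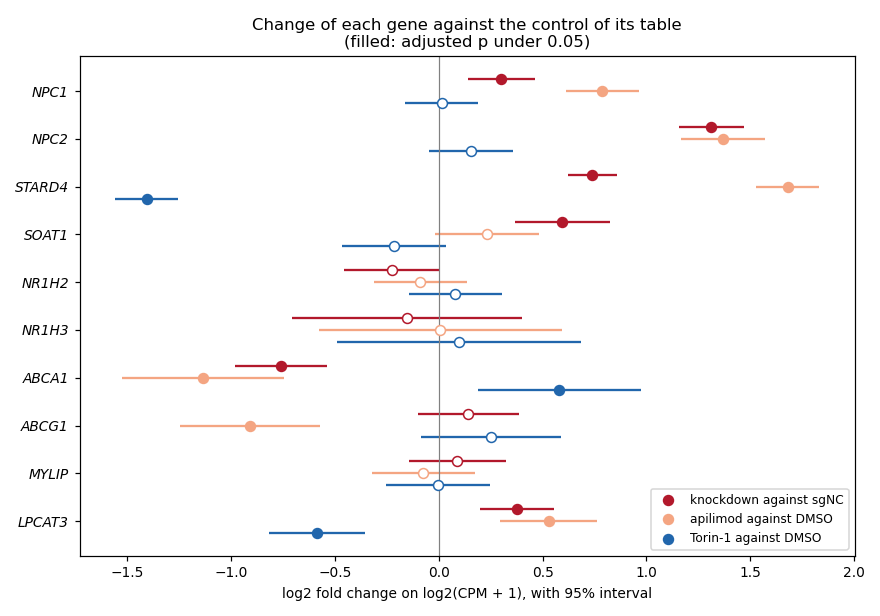
Log2 fold change on log2(CPM + 1) of each gene against the control of its own table (horizontal axis), with 95% intervals from limma, in red for the knockdown, orange for apilimod and blue for Torin-1, filled where the adjusted p was under 0.05. STARD4 runs from -1.41 under Torin-1 to 1.68 under apilimod, and ABCA1 lies at -1.14 under apilimod and 0.58 under Torin-1.

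Overlap of exons with a neighbour named in advance was looked up for 5 of the 10 genes, and all 5 shared bases. The remaining genes were not searched for such overlap. The sources used here do not say whether reads were counted by strand. LPCAT3 shares 3100 exon bases with EMG1 on the other strand. EMG1 had a change of -0.0027 in the knockdown, -0.11 under apilimod (adjusted p = 0.533 from limma) and -0.25 under Torin-1 (adjusted p = 0.0390 from limma), each smaller in size than that of LPCAT3. NPC1 shares 604 bases with RMC1, a lysosomal trafficking gene on the other strand, which changed by 0.51 in the knockdown (adjusted p = 5.36e-05 from limma) and 0.31 under apilimod (adjusted p = 0.0337 from limma). The part of such shared reads in the values was not tested. STARD4 shares 124 bases with STARD4-AS1, NR1H3 189 bases with ACP2 and NPC2 103 bases with ISCA2.

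Levels can be set side by side between genes only per length, and here CPM were divided by the longest coding transcript of each gene in the basic set of GENCODE release 29. In the sgNC samples STARD4 had 31.1 and 31.6 CPM per kilobase, followed by NPC2 at 29.5 and 29.8, LPCAT3 at 17.1 and NR1H2 at 13.8 and 15.5. NPC1 had 10.6 and 11.5 CPM per kilobase, MYLIP 8.16 and 9.46, ABCG1 6.33 and 6.34, ABCA1 3.25 and 3.61 and SOAT1 2.80 and 2.87. NR1H3 was lowest at 0.831 and 1.12 CPM per kilobase. No neighbours in this order overlapped. Under DMSO, NPC2 at 14.9 and 16.5 CPM per kilobase overlapped LPCAT3 at 16.3 and 18.9, and ABCA1 at 0.506 and 0.595 overlapped NR1H3 at 0.425 and 0.597. The transcript actually used may be shorter, so the order is approximate.

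Promoter windows from RefSeq on GRCh38.p14, from 250 bases before to 50 after each start, were matched for 9 of the 10 genes, and ABCG1 was not matched. Stretches of the windows that no exon of GENCODE release 29 covers are shown for the genes with the highest and the lowest change under apilimod and for NPC2, 5′ to 3′ on the strand of the gene. Capitals mark the CCAAT box (CCAAT or its reverse complement ATTGG) in STARD4 and NPC2 and the E-box (CACGTG) in ABCA1. The stretches are chr5:111512591-111512785, chr14:74493609-74493719 and chr9:104928238-104928405, all on the minus strand.
STARD4: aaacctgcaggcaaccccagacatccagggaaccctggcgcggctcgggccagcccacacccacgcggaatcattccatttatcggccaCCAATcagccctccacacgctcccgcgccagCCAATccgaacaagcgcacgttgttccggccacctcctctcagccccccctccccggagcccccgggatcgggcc
NPC2: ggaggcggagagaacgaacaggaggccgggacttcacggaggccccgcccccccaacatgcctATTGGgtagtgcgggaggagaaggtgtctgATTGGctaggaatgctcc
ABCA1: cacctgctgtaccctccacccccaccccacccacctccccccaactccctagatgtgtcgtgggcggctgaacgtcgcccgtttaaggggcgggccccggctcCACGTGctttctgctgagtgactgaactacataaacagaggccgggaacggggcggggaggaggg
The CCAAT box is bound by NF-Y, a factor that works beside SREBPs at many of their promoters. It was found on either strand in windows of 6 of the 9 matched genes, SOAT1, STARD4, MYLIP, NR1H3, LPCAT3 and NPC2, against 34.6% of all 35116 windows. Of these 6 genes, MYLIP and NR1H3 were called in none of the comparisons. STARD4, NPC2 and MYLIP each held 2 copies and LPCAT3 held 3, where 10.8% of all windows hold 2 or more. Whether the number of copies goes with the changes was not tested. The E-box was found in ABCA1 alone, against 7.26% of all windows. The LXR element known as DR4, a direct repeat searched as an exact string, was found in none of the 9 matched genes. Only 7 of all 35116 windows (0.0199%) hold that string, so its absence cannot show whether the windows hold variant LXR sites, and such variants were not tested. A sterol regulatory element written as TCACNCCAC (1.13% of windows) and the CLEAR element of lysosomal genes written as TCACGTGA (0.980%, which contains an E-box) were found in none of the 9, both strands searched.

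The other genes of the pathway were read from 11 lists. Their counts of calls stand beside 42.5% of all genes called in the knockdown, 8.54% under apilimod and 38.5% under Torin-1. As a reference for SREBP-2 activity, 7 targets were listed and 6 tested, since 1 was under 1 CPM. All 6 were higher in the knockdown, with a median log2 fold change of 1.02, all 6 were higher under apilimod, with a median of 2.18, and all 6 were lower under Torin-1, with a median of -1.35. INSIG1, the sterol-sensing anchor that holds SREBPs back, had a mean of 170 CPM under DMSO, 878 CPM under apilimod and 36.8 CPM under Torin-1. STARD4 moved the same way as these genes in each comparison. SREBF2, which encodes SREBP-2 and was named after its values were seen, changed by 0.16, 0.72 and -0.42 (adjusted p = 0.0223, 9.89e-07 and 5.81e-05 from limma).

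Lysosomal genes other than NPC1 and NPC2 were read from 2 lists. Of 6 reference genes of the lysosome, 5 were higher and 1 lower in the knockdown, with a median of 0.71, led by GLA (alpha-galactosidase A) at 0.93, the calcium channel MCOLN1 at 0.90 and the protease CTSD at 0.75. Under apilimod 4 were higher and 1 lower, with a median of 0.29, and CTSB (cathepsin B) fell by 0.63 on the log2 scale. Under Torin-1 1 was higher and 1 lower, and GLA fell by 0.62. NPC2, at 1.31 and 1.37, lay above the median of this list in both comparisons against PIKfyve.

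Of 13 genes that handle sterol at the lysosome, 8 were higher and 3 lower in the knockdown, with a median of 0.27. TMEM97, the sigma-2 receptor that binds NPC1, rose from a mean of 36.1 to 75.4 CPM (log2 fold change 1.04), and OSBPL1A, a late endosomal sterol sensor, from 11.9 and 12.1 to 22.1 and 23.1 CPM (0.86). LAMP2, a lysosomal membrane protein, changed by 0.84 and LIPA, the acid lipase that frees cholesterol from its esters, by 0.64, while OSBPL5 fell by 0.65. Under apilimod 12 of the 13 were tested, with 5 higher, 0 lower and a median of 0.23. TMEM97 rose from 110 to 345 CPM (1.64), LIPA by 0.81 and GPR155, the lysosomal cholesterol sensor also called LYCHOS, by 0.58. Under Torin-1 2 were higher and 4 lower, and GPR155 fell by 0.76 and TMEM97 by 0.64. TMEM97 and GPR155 differed between the drugs by 2.28 and 1.34 in the direct test (adjusted p = 1.87e-12 and 1.96e-05 from limma).

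Of 13 other sterol transfer proteins, 1 was higher and 3 lower in the knockdown, with a median of 0.02. OSBPL6 rose by 0.51, whereas OSBPL10, an oxysterol-binding protein, fell from 179 to 93.6 CPM (-0.93) and GRAMD1A, which carries plasma membrane cholesterol to the endoplasmic reticulum, from 44.2 to 25.6 CPM (-0.77). Under apilimod 0 were higher and 1 lower, OSBPL10 at -0.53. Under Torin-1 4 were higher and 2 lower, with GRAMD1A at 0.58 and OSBPL10 at 0.52 above DMSO and OSBPL3 at -0.58. OSBPL10 lay below control in both comparisons against PIKfyve and above it under Torin-1, as ABCA1 did.

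For storage of sterol ester beside SOAT1, 6 genes were listed and 4 tested, since SOAT2 and CES1 were under 1 CPM. In the knockdown NCEH1, a sterol ester hydrolase, rose by 0.73, and the lipid droplet coat proteins PLIN2 and PLIN3 fell by 0.96 and 0.59. PLIN2 had 14.3 and 14.5 CPM with sgNC and 6.47 and 7.34 CPM with sgPIKFYVE-1. Under apilimod none of the 4 was called by limma, and PLIN2 was the one with an unadjusted p under 0.05 (-0.29, adjusted p = 0.227). Under Torin-1 PLIN3 fell by 0.52 and no other was called.

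Of 9 further efflux and lipoprotein genes, ABCG4, ABCG5, APOA1 and PLTP were under 1 CPM in both tables and ABCG8 in the knockdown table. ABCA7, a relative of ABCA1, fell by 0.32 in the knockdown (adjusted p = 0.00820 from limma), the only call among 4 tested. Under apilimod 2 of 5 were higher, SCARB1, the receptor for high-density lipoprotein, at 0.58 and APOC1 at 0.57. Under Torin-1 2 of 5 were lower, SCARB1 at -0.85 and ABCA7 at -0.29 (adjusted p = 2.43e-05 and 0.0393 from limma). SCARB1 thus moved with STARD4 in the drug table, and against ABCA1.

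Other LXR targets were called in both directions in the knockdown and under Torin-1, in shares near the 42.5% and 38.5% over all genes. In the knockdown 2 of 6 were higher and 1 lower, with a median of 0.25. LPL, lipoprotein lipase, rose from 2.97 and 3.41 to 8.22 and 8.41 CPM (1.16). Under apilimod APOC1 rose by 0.57 and SREBF1, which encodes SREBP-1 and is a target of both LXR and SREBPs, by 0.54, with 2 of 7 higher and 0 lower. Under Torin-1 SREBF1 fell by 1.17, and SMPDL3A, a phosphodiesterase, rose by 0.74, making 1 of 7 higher and 2 lower. APOE had between 1.36 and 6.64 CPM and no change that passed.

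Of 10 partners and coregulators of LXR, RXRB and RXRG were under 1 CPM in both tables, and 1 of the other 8 was higher in the knockdown, MED1 at 0.22 (adjusted p = 0.0111 from limma). Under apilimod 1 of 8 was higher, NCOA1 at 0.27 (adjusted p = 0.0301 from limma), and under Torin-1 1 was higher and 1 lower, EP300 at 0.21 and MED1 at -0.21. RXRA, the most familiar partner of LXR, changed by -0.37, -0.42 and 0.22 without passing in any comparison with a control, and the direct difference, apilimod minus Torin-1, was -0.65 (adjusted p = 0.00384 from limma). Of 6 oxysterol enzymes 3 were tested, since CYP27A1, CH25H and CYP7B1 were under 1 CPM. HSD3B7 rose by 0.34 in the knockdown and fell by 0.38 under Torin-1, and CYP46A1 rose by 0.38 under Torin-1 (adjusted p = 0.0492 from limma), while apilimod gave 0 calls among the 3 in limma, 0 of them at an unadjusted p under 0.05.

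Of 6 receptors and E2 enzymes that work with MYLIP, 3 were higher in the knockdown and 2 under apilimod, and under Torin-1 1 was higher and 2 lower. LRP8, a lipoprotein receptor that MYLIP acts on, rose by 0.63 in the knockdown and by 0.72 under apilimod and fell by 0.88 under Torin-1. VLDLR, another such receptor, changed by 0.32 under Torin-1 (adjusted p = 0.0173 from limma) and its other changes, -0.10 and 0.13, did not pass. Among 7 acyltransferases related to LPCAT3, 1 was higher and 2 lower in the knockdown, LPCAT4 at -0.66 and MBOAT7 at -0.59, 0 were called under apilimod by limma (0 at an unadjusted p under 0.05) and 1 was lower under Torin-1, so LPCAT3 was the one of its kind here that was called in all 3 comparisons.

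**Figure D3:**
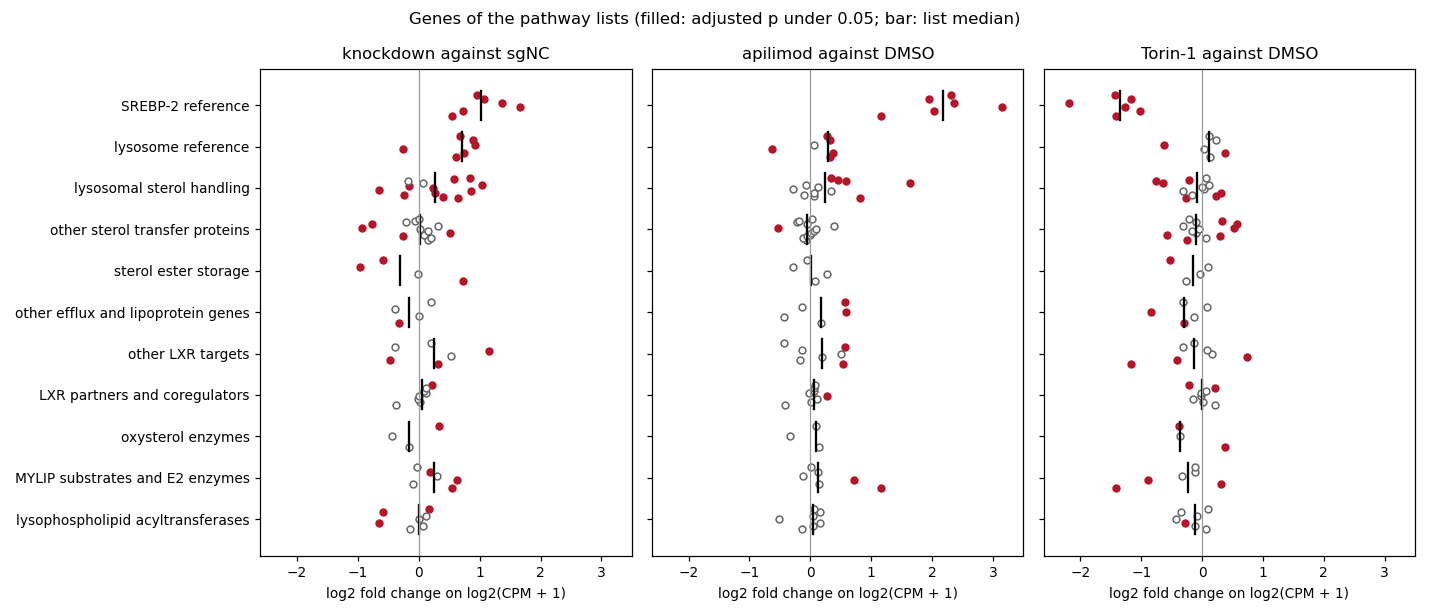
Log2 fold change on log2(CPM + 1) (horizontal axes) of each tested gene of the 11 lists in the knockdown, apilimod and Torin-1 comparisons, filled where the adjusted p was under 0.05, with a bar at each list's median. The SREBP-2 reference has medians of 1.02, 2.18 and -1.35, while the other lists have medians between -0.36 and 0.71.

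The genes most like each member were taken as the 3 with the smallest Euclidean distance over the 3 log2 fold changes among 13235 genes tested in both tables. For STARD4 the nearest were MVK (mevalonate kinase) at a distance of 0.214 and FADS2 (a fatty acid desaturase) at 0.228. For NPC2 they were TMEM154, PFKFB2 and HSD17B14, at distances from 0.210 to 0.344, and for NPC1 C6orf89, PIP4P1 and DCAF4, at 0.0907 to 0.131. PIP4P1 is a phosphoinositide phosphatase of the lysosome. For ABCA1 they were MS4A7, LRP5 and MMRN2, at 0.294 to 0.423, and for LPCAT3 MYORG, JPT2 and DPYSL2, at 0.0437 to 0.0873. The distances were not scaled to the size of the changes, so they are not compared between members. The drug comparisons share DMSO samples, so the distances describe 3 values that are not independent.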

How the data were processed

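RNA-seq of 10 QGP-1 samples was used, 2 per group. The authors demultiplexed reads with bcl2fastq 2.20, checked them with FastQC, removed adapters with Trimmomatic, summed transcript estimates per gene and applied TMM scaling (edgeR). The quantifier is not given in the sources used here, and the submitters' processing notes name hg38. The deposited values are a signal on the scale of CPM, in 2 tables normalized apart, with samples summing to 972494 to 1024332. For library preparation the methods name oligo(dT) selection, whereas depletion of ribosomal RNA stands in the labels. The step between low values put the depth at 9.11 to 13.2 M reads, so 3 reads correspond to 0.227 to 0.329 CPM, covering counting error only. Only 72.5% to 76.8% of values under 2 CPM lay within 0.05 of a whole read, so no count model was fitted, although plain CPM had been assumed. Replicates differed by more than sampling noise, with a median chi-square of 1.87 to 2.61 times the Poisson expectation.

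Within each table, genes averaging 1 CPM or more entered limma 3.58.1 (R 4.3.3) as log2(CPM + 1) (lmFit, eBayes with a trend, group as the only term, 4 samples in the knockdown fit and 6 in the drug fit), and p-values were adjusted by Benjamini-Hochberg over every gene in the fit, with calls made under 0.05. The pseudocount of 1 understates changes of low genes such as ABCA1 and NR1H3. Alternatives were a pseudocount of 0.1, no filter, quantile normalization, rescaling to equal sums, a fit without the variance trend, a replicate block, a fit of the compared groups alone, and leaving out each sample in turn. The members and lists were chosen with earlier results of these data known. All 10 members are named, and from each list the genes called with an absolute log2 fold change of at least 0.5, at most 4 per direction, and some smaller calls chosen after their values were seen. Of the 10 gene IDs, 2 carry the same version in GENCODE release 29. Figures were drawn with matplotlib 3.10.9. Some genes that this rule names are not reported here.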

Additional observations from a re-analysis of the deposited data

How the results depend on the processing

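Of 490 values of the 10 genes under the alternatives, 479 kept their direction and side of the threshold or had no call to lose, 11 lost a call and 0 turned direction with a call. The lost calls, all given beside their genes, were those of NPC1 in the knockdown, LPCAT3 under apilimod, ABCA1 under Torin-1 and SOAT1 between the drugs. The number of the 10 higher under Torin-1 was 1 and became 0 without the filter on low values, and lay between 0 and 1 with each sample left out. The number of all genes called under apilimod was 1155 and became 565 without the filter, 466 without the variance trend and 1756 with the replicate block, and lay between 596 and 1315 with a sample left out, with 656 and 596 without either DMSO sample and 688 without the first apilimod sample. In the knockdown 5772 genes were called and 3709 without the variance trend. Groups share the replicate numbers 1 and 2, but nothing in the labels ties same-numbered samples together. The differences between replicates correlated across genes at 0.00166 in the knockdown table and at 0.0791 to 0.264 in the drug table, highest between Torin-1 and apilimod. Whether these samples shared a replicate effect was not tested, and the block changed 0 of 40 calls of the 10 genes. With 2 samples per group, each sample left out leaves a group with 1, assumed to vary like the others.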
